A study of Mus musculus with 14 samples.

Results

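The 10 genes described here are markers of the cells that surround the granulosa layer of the ovarian follicle. Pdgfra, Ptch1 and Cyp17a1 mark theca cells, Pdgfrb, Acta2 and Notch3 mark vascular mural cells (the pericytes and smooth muscle cells wrapped around vessels, not the mural granulosa), and Pecam1, Cdh5, Kdr and Flt1 mark endothelium. They were chosen by name, as 10 of the 55414 gene identifiers in a table of raw read counts, and each of them had 1 identifier. The libraries were labelled granulosa cells (GCs) from antral follicles and each held RNA of about 50 cells, released by needle puncture from ovaries of 12-week-old female mice. In B6.BKS(D)-Leprdb/J homozygotes (db/db, 4 libraries) the long form of the leptin receptor is lost, and their lean littermates (CT db, 4 libraries) were the controls. In B6.Cg-Lepob/J homozygotes (ob/ob, 3 libraries) leptin itself is lacking, and their lean littermates (CT ob, 3 libraries) were the controls. The controls were labelled wild type although their columns in the table carry the prefix het, and which of the names holds was not settled. The mutations are constitutional in both models, so that no result is particular to a loss of leptin signalling in GCs, and strain, colony and model cannot be told apart where the models are set side by side.

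Theca cells form the outer layer of the follicle, answer hedgehog ligands made by GCs, and make the androgens that GCs turn into oestrogens. Vessels run in the theca and stop at the basement membrane, so the granulosa layer of an antral follicle holds no capillaries of its own before ovulation. Endothelial cells attract mural cells with PDGF-B, which binds the receptor encoded by Pdgfrb, and NOTCH3 is the NOTCH receptor of mural cells. KDR and FLT1 are the receptors through which endothelium reads VEGF-A.

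The 14 libraries held between 2204686 and 8367593 assigned reads. Levels are given as counts per 1000000 assigned reads (CPM) after scaling by the trimmed mean of M-values (TMM). A count of 3, the level taken as the limit of detection, was worth between 0.369 and 1.30 CPM in the single libraries. All 10 granulosa markers examined, among them Inha, Fst and Hsd17b1, had more than 3 counts in every library. CT ob library 68 stood apart, with 24.5% of its reads in 18S rRNA and the highest level of the 14 libraries for 24.7% of genes. Libraries are named by group and by the number in their column, and values within a group follow ascending numbers: 24, 53, 68 and 81 for db/db, 37, 51, 69 and 75 for CT db, 41, 50 and 106 for ob/ob, and 60, 65 and 68 for CT ob.

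Of the 140 pairs of marker and library, 101 had more than 3 counts, and 132 had at least 1 count. Pdgfra, Ptch1 and Pdgfrb were above 3 counts in all 14 libraries, Pecam1 in 13, Cyp17a1 and Acta2 in 12, Kdr in 9, Cdh5 in 8, Flt1 in 4 and Notch3 in 1. Each cell type had at least 1 marker above 3 counts in 13 or 14 libraries and at least 1 in fewer, and the gap was widest among the mural markers, from 14 for Pdgfrb to 1 for Notch3. When every library was thinned to the reads of the smallest, 90 pairs stayed above 3 counts, Flt1 fell to 1 library and Pecam1 to 10, while Pdgfra, Ptch1, Cyp17a1 and Notch3 kept their number of libraries. CT ob library 65 was the single library with all 10 markers above 3 counts, with and without thinning. ob/ob library 50, the deepest one, had 9 of the 10 before thinning and 6 after it.

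Levels can be compared between genes only per length. On the scale of CPM per kb of exon, the mean over 14 libraries was highest for Cyp17a1 (10.8), the enzyme that turns progestogens into androgens, and next for the hedgehog receptor Ptch1 (3.84) and smooth muscle actin Acta2 (2.95). The growth factor receptors Pdgfrb (1.2) and Pdgfra (0.718) followed, then the endothelial genes Cdh5 (0.410), Pecam1 (0.331) and Kdr (0.311), and last Flt1 (0.0628) and Notch3 (0.0441). The ranges over libraries of every pair of neighbours in this order overlapped. Cyp17a1, first in the mean, stood above Ptch1 in 8 of 14 libraries. The clearest step was that from Kdr to Flt1, with Kdr higher per length in 13 of 14 libraries.

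**Figure D1:**
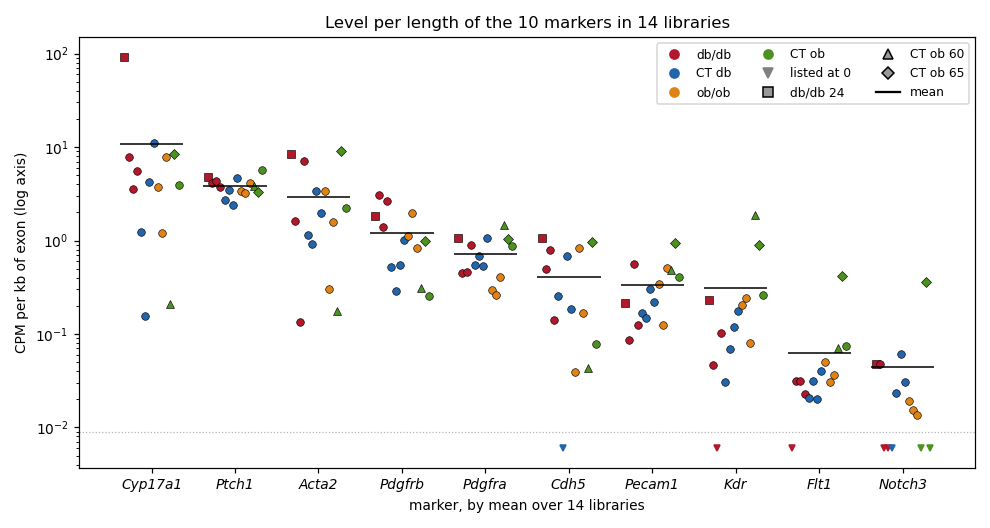
Level per length of the 10 markers, in CPM per kb of exon on a log axis; each point is 1 of 14 libraries coloured by group, the line is the mean over libraries, and triangles at the bottom are libraries listed at 0. Means fall from 10.8 for Cyp17a1 to 0.0441 for Notch3, and the point of db/db library 24 stands apart for Cyp17a1.

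Among the theca markers, Ptch1 was the steadiest, Pdgfra differed most between the ob groups, and Cyp17a1 varied most from library to library. Ptch1 encodes the receptor that hedgehog ligands bind and is itself switched on by the pathway. It lies on chromosome 13 from 63656142 to 63721412 (GRCm39, minus strand). Its level was 70.8, 61.1, 64.5 and 54.7 CPM in the db/db libraries, 39.97, 50.9, 35.7 and 68.0 CPM in CT db, 47.9, 61.3 and 49.4 CPM in ob/ob, and 56.3, 49.1 and 82.9 CPM in CT ob. All groups overlapped, and the highest library, CT ob library 68, stood 1.49 times above the median of the 14. The log2 fold change was 0.36 (SE 0.20) in db/db against CT db and -0.25 (SE 0.24) in ob/ob against CT ob, with adjusted p = 0.704 and 0.794 (quasi-likelihood test of edgeR, Benjamini-Hochberg correction over all genes tested).

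Pdgfra encodes the PDGF receptor alpha of theca and stromal fibroblasts and lies on chromosome 5 from 75311994 to 75358876 (plus strand). It stood at 13.2, 5.59, 5.63 and 10.9 CPM in db/db mice, 6.76, 8.31, 6.59 and 13.1 CPM in CT db, 3.18, 5.05 and 3.62 CPM in ob/ob, and 18.2, 12.7 and 10.9 CPM in CT ob. The ob/ob libraries were the lowest 3 of the 14, below every library of CT ob and of db/db, while db/db and CT db overlapped. In bulk samples such as these, fewer cells of a type and less RNA per cell cannot be told apart. Against CT ob, the log2 fold change was -1.82 (SE 0.38), with adjusted p = 0.539 by edgeR and 0.0132 by DESeq2, so that the call depended on the tool. The exact permutation test on CPM gave a two-sided p of 0.1, the smallest that 3 against 3 libraries allow. The value kept its direction with each library left out in turn, between -2.03 and -1.58. Against db/db it was -1.16 (SE 0.39, edgeR adjusted p = 0.392), and the mutant effects of the models differed by -1.85 (SE 0.53), with adjusted p = 0.379 by edgeR and 0.127 by DESeq2. In db/db against CT db the log2 fold change of Pdgfra was 0.03 (SE 0.36, edgeR adjusted p = 0.988). The annotation places 5.67% of its exon bases under other genes.

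Cyp17a1 lies on chromosome 19 from 46655604 to 46661611 (minus strand). The 4 db/db libraries had 256, 21.5, 9.96 and 15.3 CPM, CT db had 3.38, 0.426, 11.8 and 30.8 CPM, ob/ob had 3.32, 21.9 and 10.4 CPM, and CT ob had 0.575, 23.2 and 10.9 CPM. db/db library 24, with 600 counts, was 8.29 times above the second library, and apart from it all groups overlapped widely. 18S rRNA took 12.8% of the reads of that library and at most 1.98% in the other db/db libraries, and its part in the value was not tested. CT db library 51 and CT ob library 60 had 2 and 3 counts, at or under the detection limit, in libraries of 4840714 and 4847166 reads. Its log2 fold change was 2.72 (SE 1.10, edgeR adjusted p = 0.608) in db/db against CT db, and 0.43 without db/db library 24. The value in ob/ob against CT ob was 0.05 (SE 0.996, edgeR adjusted p = 0.993).

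The wider lists around theca cells did not pass the test either. Of 11 further theca and stroma genes, 5 were tested in db/db against CT db and 6 in ob/ob against CT ob, and none was called by edgeR or DESeq2, nor had any an unadjusted edgeR p under 0.05. Of all genes tested, 7.59% had such a p for db/db and 8.16% for ob/ob, which is the background of this count for the other lists too. Their median log2 fold changes were 0.46 and -0.35, beside 0.01 and -0.04 over all genes tested. Among the most abundant, the retinal dehydrogenase Aldh1a1 had 397 CPM in db/db library 24 and between 19.5 and 141 CPM elsewhere. Of 13 hedgehog genes, 7 were tested in each model, 1 in each had an unadjusted edgeR p under 0.05, beside 7.59% and 8.16% of all genes, and none was called by either tool. The ligands Ihh and Dhh, which GCs make, had more than 3 counts in all 14 libraries, as did the signal transducers Smo and Sufu, while Shh was at 0 in every library. Ihh stood between 49.2 and 344 CPM and its highest library was CT ob library 65. Of 7 androgen synthesis genes, 6 were tested in each model and none was called by either tool, with an unadjusted edgeR p under 0.05 for 0 in db/db and 1 in ob/ob. Cyp11a1, which makes pregnenolone from cholesterol, was highest in CT ob library 65 (209 CPM) and db/db library 24 (191 CPM).

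The mural markers did not move as a group. Pdgfrb encodes PDGF receptor beta and lies on chromosome 18 from 61178212 to 61218133 (plus strand). The authors of the study describe its product as a GC receptor for oocyte PDGF-BB, and report Pdgfrb as upregulated in db/db mice. Which cells the Pdgfrb reads came from was not tested. The authors used DESeq2 on these libraries at an adjusted p of 0.05 or less, so a DESeq2 call here is not separate from their report. The db/db libraries held 14.9, 24.9, 11.3 and 21.3 CPM, CT db held 4.22, 2.34, 4.40 and 8.19 CPM, ob/ob held 16.1, 6.65 and 9.15 CPM, and CT ob held 2.49, 7.97 and 2.04 CPM. Every db/db library stood above every CT db library, and ob/ob overlapped CT ob because of CT ob library 65. In the same comparison Acta2 overlapped and Notch3 lay below the detection limit in both groups. The log2 fold change was 1.93 (SE 0.38), which the edgeR test did not call and DESeq2 called, with adjusted p = 0.363 and 0.00483, and the exact permutation test gave a two-sided p of 0.0286, the smallest possible with 4 against 4 libraries. Leaving out each library in turn gave 1.68 to 2.31. In ob/ob against CT ob it was 1.33 with all libraries and 2.2 without CT ob library 65, with edgeR adjusted p = 0.616 and 0.676.

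Acta2, the actin of smooth muscle and myofibroblasts, lies on chromosome 19 from 34217737 to 34232990 (minus strand). It had 26.9, 5.16, 0.433 and 22.8 CPM in db/db mice, 3.66, 2.98, 10.99 and 6.28 CPM in CT db, 0.969, 5.05 and 11.04 CPM in ob/ob, and 0.575, 29.4 and 7.14 CPM in CT ob. Each group except CT db reached from below 1 CPM to above 10 CPM, so the spread was within groups. The log2 fold change was 1.23 (SE 0.75, edgeR adjusted p = 0.723) in db/db against CT db and -1.13 (SE 1.14, edgeR adjusted p = 0.803) in ob/ob against CT ob, and the latter was 0.62 without CT ob library 65. The annotation places 9.33% of its exon bases under Stambpl1 on the other strand, and without strand the reads of both genes cannot be told apart there.

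Notch3, on chromosome 17 from 32339794 to 32385893 (minus strand), was above the detection limit in CT ob library 65 alone, with 13 counts or 3.24 CPM. It had 0, 1 or 2 counts in the other 13 libraries. The mean of CT ob was at least 2.49-fold higher than ob/ob and at least 1.38-fold higher than CT db, each taken at the mean 3-count floor per library, and both bounds rested on that library, for the other 2 libraries of CT ob were at 0. A gene on the other strand covers 8.92% of its exon bases. The gene passed the filter on low counts in no comparison, and the exact permutation test gave a two-sided p of 1 for ob/ob against CT ob. Of 10 further mural genes, none passed the filter in db/db against CT db, and 3 did in ob/ob against CT ob, with none called by either tool and none at an unadjusted edgeR p under 0.05. Cspg4, which encodes the pericyte proteoglycan NG2, was called in CT ob against CT db, at 7.47, 5.98 and 13.3 CPM against 2.81, 0.426, 1.37 and 1.36 CPM. Its log2 fold change was 2.58 (SE 0.53, edgeR adjusted p = 0.0167), in a comparison where edgeR called 6.63% of all genes tested. Cspg4 was the only gene of the theca, mural and endothelial lists that edgeR called in any comparison with all libraries and the filter on low counts. The call was lost without CT ob library 68 (2.17, edgeR adjusted p = 0.0719), CT db library 51 (adjusted p = 0.0518) or CT db library 75 (adjusted p = 0.0515).

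No gene for a ligand of these receptors was called by either tool in the mutants against their controls. All 4 PDGF ligand genes were tested in both models, with an unadjusted edgeR p under 0.05 for 2 in db/db and 1 in ob/ob, beside 7.59% and 8.16% of all genes. Pdgfb stood between 10.2 and 34.0 CPM and Pdgfa above 3 counts in all 14 libraries, and the 4 db/db libraries of Pdgfb (17.5, 30.1, 16.9 and 26.3 CPM) lay above those of CT db (10.4, 10.2, 14.3 and 13.4 CPM). Its log2 fold change there was 0.91, with an edgeR adjusted p of 0.413, and 4.13% of all genes tested did not overlap in that comparison. Of 11 NOTCH genes, 6 were tested in db/db and 7 in ob/ob mice against their controls, none was called by edgeR or DESeq2 (unadjusted edgeR p under 0.05 for 1 and 0 of them), and Heyl, Notch2 and Hey2 each had more than 3 counts in all libraries where Notch3 had at most 2 in 13 of them.

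**Figure D2:**
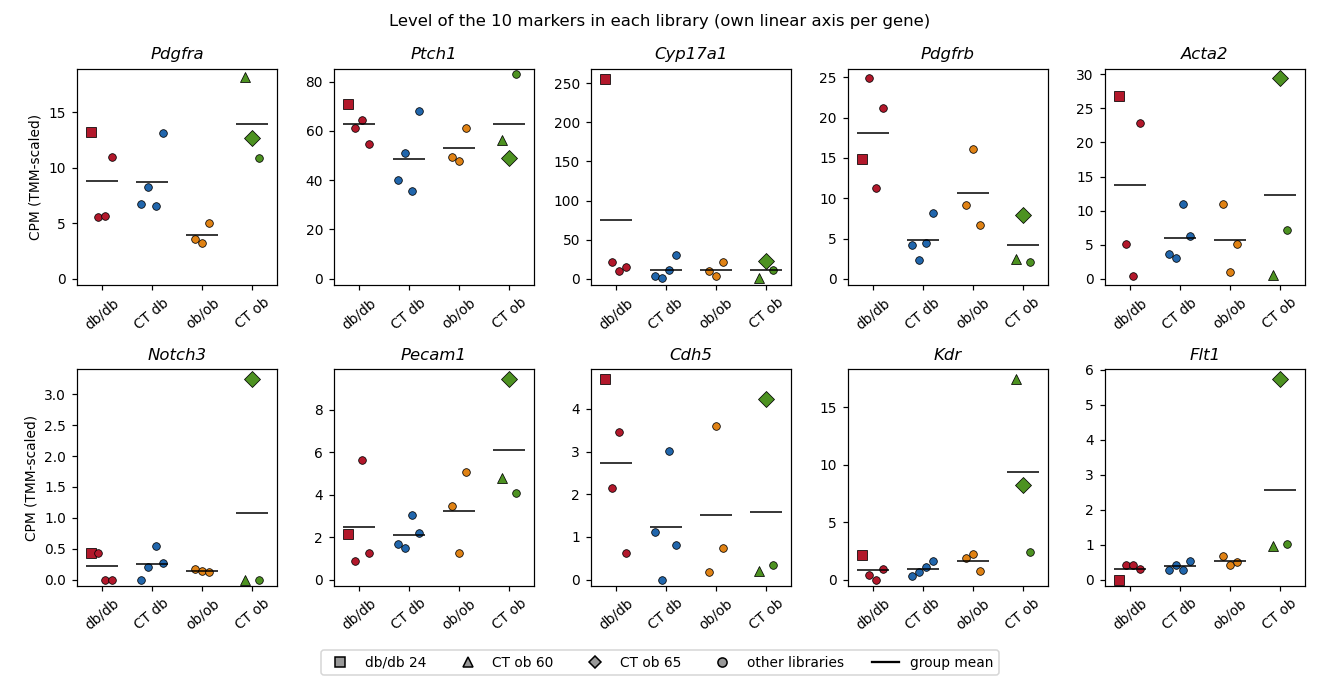
Level of the 10 markers in CPM on a linear axis of its own for each gene, 1 point per library and a line for the group mean; db/db library 24, CT ob library 60 and CT ob library 65 have their own symbols. Pdgfra shows the 3 ob/ob libraries lowest, and the diamond of CT ob library 65 is the top point of Acta2, Notch3, Pecam1 and Flt1.

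The endothelial markers had their largest sums in 2 CT ob libraries, 27.7 CPM in library 65 and 23.4 CPM in library 60, and no more than 9.53 CPM in the other 12. The promoters of genes that were high in the same library are shown so that their start regions can be compared: Kdr and Flt1 for the endothelium, Notch3 and Acta2 for the mural cells. RefSeq promoter sequences (GRCm38.p6) were at hand for 6 of the 10 genes, not for Pdgfrb, Pecam1, Cdh5 or Cyp17a1. Each run is the 250 bases before the annotated start, read 5′ to 3′ on the gene's strand, and capitals mark GGAA or its reverse complement TTCC, the core of the sites of ETS factors.
Kdr, chr5:75978456-75978705, minus strand: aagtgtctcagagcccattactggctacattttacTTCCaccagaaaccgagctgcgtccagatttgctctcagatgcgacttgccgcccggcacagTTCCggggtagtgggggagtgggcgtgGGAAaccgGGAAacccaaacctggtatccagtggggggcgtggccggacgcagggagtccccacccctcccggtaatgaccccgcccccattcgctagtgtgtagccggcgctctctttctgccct
Flt1, chr5:147726012-147726261, minus strand: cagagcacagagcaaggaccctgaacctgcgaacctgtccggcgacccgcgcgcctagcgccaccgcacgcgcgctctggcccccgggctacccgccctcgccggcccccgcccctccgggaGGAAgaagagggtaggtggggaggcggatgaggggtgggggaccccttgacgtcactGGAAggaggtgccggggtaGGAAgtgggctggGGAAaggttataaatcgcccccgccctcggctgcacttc
Notch3, chr17:32166891-32167140, minus strand: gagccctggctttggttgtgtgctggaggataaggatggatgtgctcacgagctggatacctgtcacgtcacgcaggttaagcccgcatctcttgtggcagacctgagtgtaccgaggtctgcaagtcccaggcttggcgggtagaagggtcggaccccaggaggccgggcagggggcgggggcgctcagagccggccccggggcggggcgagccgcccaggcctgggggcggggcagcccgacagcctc
Acta2, chr19:34255374-34255623, minus strand: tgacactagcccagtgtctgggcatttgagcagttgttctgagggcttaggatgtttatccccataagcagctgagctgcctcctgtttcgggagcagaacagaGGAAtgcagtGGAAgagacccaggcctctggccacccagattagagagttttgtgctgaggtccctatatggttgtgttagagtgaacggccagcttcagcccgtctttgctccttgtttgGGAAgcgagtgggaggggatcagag
Kdr and Flt1 each held 4 such matches, Acta2 held 3 and Notch3 held 0, where the median of 32851 promoter windows of the same length was 3 and 93.4% held at least 1. TGGGAA, the core of RBPJ sites, which contains GGAA, was matched once in Kdr and once in Acta2 and was in 21.6% of the windows. TATAAA was matched in Flt1 and in 12.4% of the windows, and the CArG box of smooth muscle genes, searched in its strict form with no mismatch, was matched in none of the 4 and in 1.47% of the windows. With 1 mismatch allowed, a search added after the sequences were seen, it was matched 2 times in Acta2 and 1 time in Kdr, and in 18.6% of the windows.

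Pecam1 encodes the junction protein CD31 of endothelium and some leukocytes and lies on chromosome 11 from 106543689 to 106641454 (minus strand). It had 2.13, 0.860, 5.63 and 1.25 CPM in db/db mice, 1.69, 1.49, 3.02 and 2.18 CPM in CT db, 1.246, 5.05 and 3.45 CPM in ob/ob, and 4.79, 9.47 and 4.08 CPM in CT ob. The CT ob libraries stood above all of CT db and overlapped ob/ob. For Pecam1 the log2 fold change was -0.91 (SE 0.60, edgeR adjusted p = 0.709) in ob/ob against CT ob. In CT ob against CT db it was 1.55 (SE 0.60, edgeR adjusted p = 0.118), and 1.08 without CT ob library 65. The exact permutation test gave a two-sided p of 0.0571 for the latter comparison, the smallest that 3 against 4 libraries allow.

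Cdh5, on chromosome 8 from 104828231 to 104871143 (plus strand), encodes VE-cadherin, the cadherin that holds endothelial cells together. It stood at 4.69, 2.15, 3.46 and 0.625 CPM in db/db mice, 1.13, 0, 3.02 and 0.819 CPM in CT db, 3.60, 0.739 and 0.173 CPM in ob/ob, and 0.192, 4.24 and 0.340 CPM in CT ob. Every group held low and high libraries and all groups overlapped. The exact permutation test gave a two-sided p of 0.257 in db/db against CT db and 0.8 in ob/ob against CT ob. In CT ob against CT db the log2 fold change was 0.40 (SE 1.16, edgeR adjusted p = 0.848) and -2.15 without CT ob library 65.

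Kdr, which encodes VEGF receptor 2, lies on chromosome 5 from 76093487 to 76139884 (minus strand). Its levels were 2.13, 0.430, 0 and 0.938 CPM in db/db mice, 0.281, 0.639, 1.10 and 1.64 CPM in CT db, 2.22, 0.739 and 1.90 CPM in ob/ob, and 17.4, 8.22 and 2.38 CPM in CT ob. The 3 CT ob libraries were the highest of the 14, by a narrow step in CT ob library 68. CT ob library 60 had 91 counts, where no library outside CT ob had more than 16. The log2 fold change of ob/ob against CT ob was -2.55 (SE 0.74), with adjusted p = 0.539 by edgeR and 0.0844 by DESeq2, between -2.99 and -1.74 with single libraries left out, and the exact two-sided permutation p was 0.1. In the fit of all 14 libraries Kdr was too low to be tested. It entered the fits without 1 of the ob/ob libraries or without CT ob library 68 through its high CT ob libraries, so that a difference there was set by the filter and is not read as a call. On CPM, CT ob against CT db gave an exact two-sided permutation p of 0.0571, the smallest possible.

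Flt1, on chromosome 5 from 147498414 to 147662826 (minus strand), encodes VEGF receptor 1. It had 0, 1, 1 and 1 counts in db/db, 1, 2, 1 and 2 in CT db, 3, 4 and 4 in ob/ob, and 5, 23 and 3 in CT ob, and the 23 counts of CT ob library 65 made 5.73 CPM. No other library exceeded 1.02 CPM. On the CPM scale the CT ob libraries lay above ob/ob without overlap, where 15.7% of the genes tested did not overlap and Flt1 was too low to be tested. The closest were CT ob library 60 (0.958 CPM, 5 counts) and ob/ob library 106 (0.690 CPM, 4 counts). The 3 counts of CT ob library 68 were at the detection limit. The mean of CT ob was at least 3.29-fold higher than CT db taken at its mean floor, which again rested on CT ob library 65. The exact permutation test gave a two-sided p of 0.1 for ob/ob against CT ob and 0.0571 for CT ob against CT db, each the smallest that the numbers of libraries allow. Of 12 further endothelial genes, 1 was tested in each model and 3 in the fit of all libraries, and none was called by edgeR. DESeq2 called Egfl7 in CT ob against CT db, beside 12.4% of all genes tested. Of 11 VEGF and angiopoietin genes, 4 could be tested for db/db and 5 for ob/ob, and none was called by either tool (unadjusted edgeR p under 0.05 for 1 and 0 of them). Vegfa, the ligand of both receptors, stood between 10.4 and 96.5 CPM and was among its lower values, 11.9 and 13.5 CPM, in the 2 libraries with the most Kdr.

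**Figure D3:**
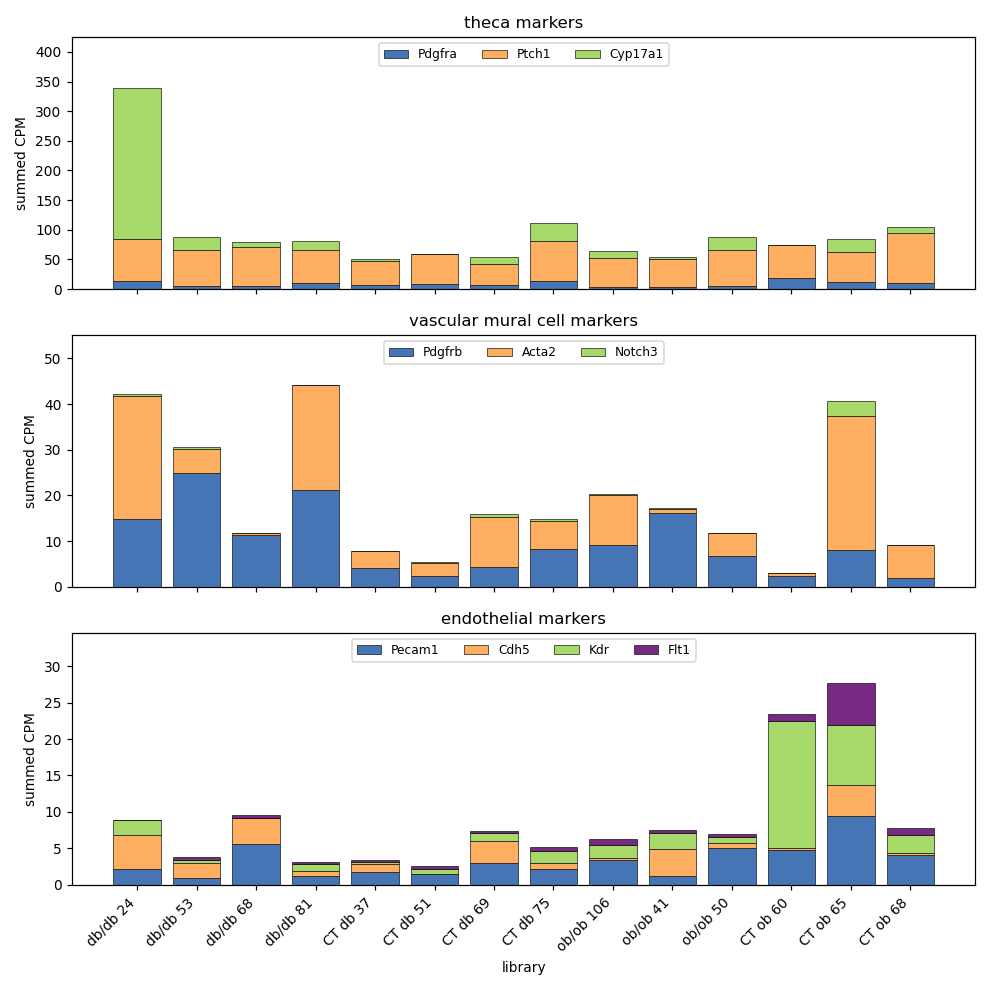
Summed CPM of the markers of each cell type in the 14 libraries, stacked by gene, with bars from 0. The endothelial sum is 27.7 CPM in CT ob library 65 and 23.4 CPM in CT ob library 60 and 9.53 CPM or less elsewhere, and the theca sum of 340 CPM in db/db library 24 is mostly Cyp17a1.

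No marker was called by edgeR in any of the 5 comparisons, and few genes of any kind were, except between the controls. In db/db against CT db, 5 of the 10 markers passed the filter on low counts and none was called, beside 1 of 11317 genes tested (0.00884%), of which 859 had an unadjusted p under 0.05, Pdgfrb and Cyp17a1 among them. With DESeq2, 1 of the 5 was called (Pdgfrb, higher), beside 44 genes (0.389%). In ob/ob against CT ob, 7 markers were tested and none was called, beside 0 of 12425 genes (0%), of which 1014 had an unadjusted p under 0.05, Pdgfra and Kdr among them. With DESeq2, 1 of the 7 was called (Pdgfra, lower), beside 86 genes (0.692%). In the fit of all 14 libraries 7 markers were tested. None of them was called in CT ob against CT db, beside 834 of 12586 genes (6.63%) by edgeR and 1563 (12.4%) by DESeq2. Pecam1 was the single marker there with an unadjusted edgeR p under 0.05. None was called in ob/ob against db/db, beside 2 genes (0.0159%) by edgeR and 72 (0.572%) by DESeq2. None was called in the test of the difference between the mutant effects, beside 0 genes (0%) by edgeR and 72 (0.572%) by DESeq2, where 1021 genes had an unadjusted edgeR p under 0.05, and in both of these comparisons Pdgfra alone of the markers had an unadjusted edgeR p under 0.05.

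Groups that did not overlap were counted as well. The filter on low counts did not ask for a difference between groups. Kdr passed it in the ob model through libraries of both groups. Scaled by library totals, it had 2.32 and 2.07 CPM in ob/ob libraries 41 and 106. CT ob libraries 60 and 65 had 18.8 and 8.77 CPM on that scale. Of the markers tested, 1 of 5 (Pdgfrb) did not overlap in db/db against CT db, beside 4.13% of genes. The count was 2 of 7 (Pdgfra and Kdr) in ob/ob against CT ob, beside 15.7%, 1 of 7 (Pecam1) in CT ob against CT db, beside 21.2%, and 1 of 7 (Pdgfra) in ob/ob against db/db, beside 9.91%. All of these used TMM-scaled CPM, and with library totals alone Kdr overlapped in ob/ob against CT ob. The median log2 fold change of the tested markers was 1.23 for db/db, all 5 being above 0, and -0.91 for ob/ob, 2 of 7 being above 0, while the medians over all genes were 0.01 and -0.04. Of all genes tested, 5836 of 11317 were above 0 for db/db and 5719 of 12425 for ob/ob. Without db/db library 24, the db/db value was -0.22 for Pdgfra and 0.43 for Cyp17a1. These comparisons across models share samples with those within them.

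**Figure D4:**
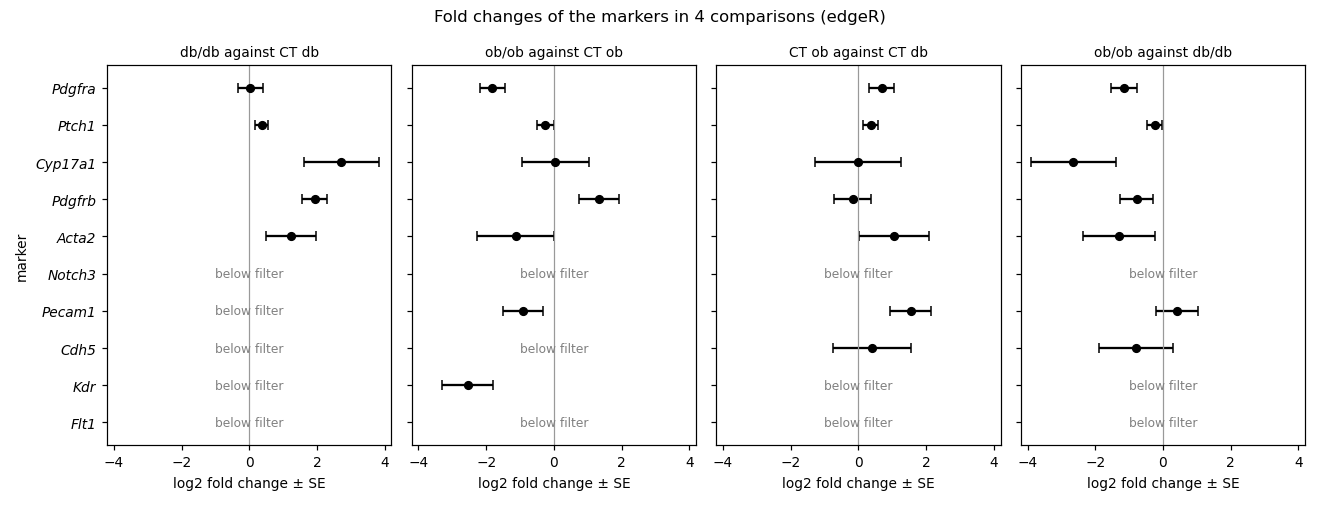
Log2 fold change with its standard error of each marker in 4 comparisons, from the edgeR fits; markers too low for the fit are named as such. Pdgfrb stands highest relative to its error in the db model (1.93, SE 0.38) and Pdgfra lowest in the ob model (-1.82, SE 0.38).

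Markers of 1 cell type were next asked whether they were high in the same library. A marker was counted as high in a library where it had more than 3 counts and at least 3 times its median over the 14 libraries, or more than 3 counts where that median was 0. In CT ob library 65 all 4 endothelial markers and 9 of 12 further endothelial genes were high, 13 of 16 in all, beside 4.19% of the 20957 genes with more than 3 counts in some library and 7.23% of the 11731 of them with a mean under 10 CPM, the range in which all 16 lie. Further genes are named in this paragraph and in those that follow on single libraries because they were high, a choice made after their values were seen. The 9 were Tek, Tie1, Eng, Emcn, Esam, Cldn5, Plvap, Robo4 and Sox17, and Vwf, Egfl7 and Erg were not high. Eng, a TGF-beta co-receptor of endothelium, had 15.2 CPM there and at most 1.73 CPM elsewhere, and the junction gene Esam had 13.2 CPM there and at most 5.12 CPM elsewhere. Tie1 had 23 counts there and Sox17 had 7, where Sox17 was at 0 in the other 13 libraries. No other library had more than 3 of the 16 endothelial genes high. The summed level of the 16 was 93.4 CPM in CT ob library 65 and between 7.32 and 30.9 CPM in the other 13.

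Other lists were high in the same library. Of the 13 mural genes, 6 were high in CT ob library 65 (Acta2, Notch3, Rgs5, Mcam, Abcc9 and Kcnj8), and at most 2 in any other library, while Tagln and Higd1b were above 3 counts in none of the 14. Pdgfrb was not among the 6, at 7.97 CPM close to its median of 8.08 CPM. Of the 14 theca and stroma genes, 5 were high there (Hhip, Tcf21, Col1a1, Col1a2 and Col3a1), with Col1a2 and Col3a1 at 39.4 and 39.9 CPM and at most 9.49 and 11.3 CPM elsewhere. Cyp17a1, Pdgfra and Ptch1 were not high there, and Insl3, the peptide hormone of theca cells, was at 0. Of 7 leukocyte genes, 3 were high in the same library (Lyz2, C1qa and C1qb) and the summed leukocyte level was 22.2 CPM, beside 2.16 to 24.3 CPM over all libraries. Oocyte genes had 249 CPM in sum there, 5 of 7 being high, and no surface epithelium or erythrocyte gene was high. The part of other cells in the RNA of this library was not tested.

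**Figure D5:**
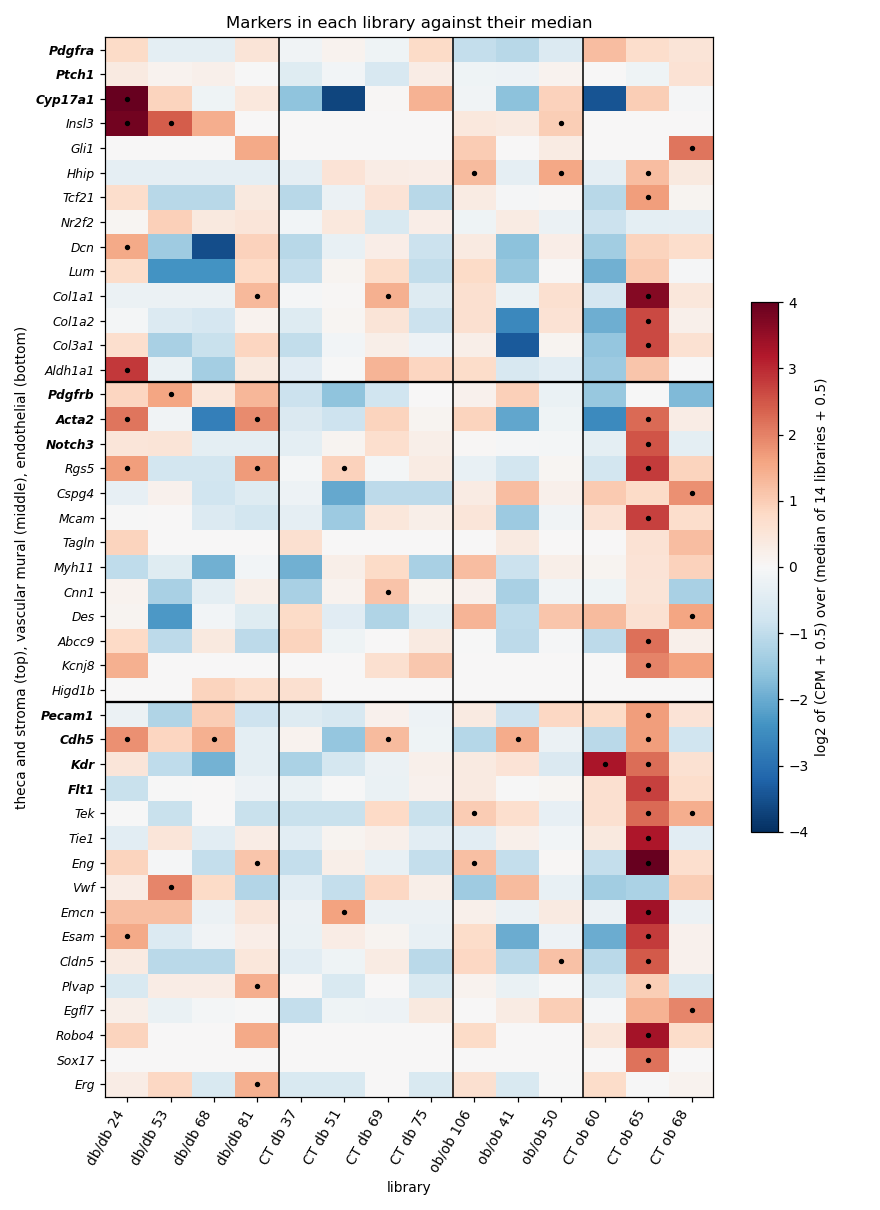
Theca and stroma, mural and endothelial genes (rows, the 10 markers in bold) in the 14 libraries (columns), coloured by the log2 of CPM plus 0.5 over the median plus 0.5; a dot marks a gene counted as high. The column of CT ob library 65 carries 13 dots among the 16 endothelial genes and 6 among the 13 mural genes.

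db/db library 24 showed another set. Of the 14 theca and stroma genes, 4 were high there (Cyp17a1, Insl3, Dcn and Aldh1a1), beside 2.53% of genes and 4.3% of those under 10 CPM, and Insl3 had 6.82 CPM in it and at most 2.15 CPM elsewhere. Pdgfra and Ptch1, at 13.2 and 70.8 CPM, were the second highest of the 14 libraries without reaching 3 times their median. Acta2 and Rgs5 were high among the mural genes and Cdh5 and Esam among the endothelial ones. In the same library 4 of 5 surface epithelium genes were high (Upk3b, Krt19, Krt7 and Lhx9), with a summed level of 25.6 CPM beside at most 7.14 CPM elsewhere. Its leukocyte sum of 24.3 CPM, mostly Lyz2, was the highest of the 14, and its oocyte sum was 5.12 CPM. Its 18S share was the second largest of the 14, at 12.8%. The part of these cells in the Cyp17a1 value was not tested.

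In each of the other libraries no more than 1 of the 10 markers was high. CT ob library 60 had Kdr as its only high gene of the 16 endothelial ones, beside 6.21% of all genes and 10.3% of those under 10 CPM, with Pecam1 at 4.79 CPM, Flt1 at 0.958 CPM and Cdh5 at 0.192 CPM. All 7 oocyte genes were high in that library, with a sum of 969 CPM, the largest of the 14. ob/ob library 106 had the second largest oocyte sum, 617 CPM, and Kdr at 1.90 CPM. The part of oocyte RNA in the Kdr value was not tested. CT ob library 68, in which 12.8% of genes and 22.0% of those under 10 CPM were high, had 2 endothelial (Tek and Egfl7), 2 mural (Cspg4 and Des) and 1 theca gene (Gli1) and none of the 10 markers. Cdh5 was high in db/db library 68, CT db library 69 and ob/ob library 41 with no other endothelial gene of the 16. Pdgfrb was high in db/db library 53 alone, and Acta2 in db/db library 81 beside Rgs5 and 3 endothelial genes (Eng, Plvap and Erg). In that library 2 of 13 mural and 3 of 16 endothelial genes were thus high, beside 2.13% of all genes and 3.62% of those under 10 CPM. Erythrocyte genes did not exceed 2 counts in any library.

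The genes whose log2 CPM was closest over the 14 libraries were sought for the 7 markers that passed the filter of the fit of all libraries, thus not for Notch3, Kdr and Flt1. Of the further lists, that filter left 6 theca and stroma, 2 mural and 3 endothelial genes among the candidates. Over 12586 genes and 14 libraries that share depth and group, and given as a description, the closest to Pdgfra was Pdp1 (Pearson's r = 0.86), followed by Slc40a1 and Nub1. Ptch1 went with A930005H10Rik (r = 0.86), Dnajc8 and Ntpcr, and Cyp17a1 with Dtna (r = 0.91), Bpifb5 and Serping1. Pdgfrb was followed by Smpdl3b (r = 0.92), Add3 and Abcc3, Pecam1 by Lurap1 (r = 0.87), Parp10 and Gramd4, and Cdh5 by Efhd1 (r = 0.91), Tpst1 and Gm37906. For Acta2 they were the macrophage lysozyme gene Lyz2 (r = 0.92), the actin-binding Tmsb4x and the steroidogenic Cyp11a1. Among these 7 markers, the highest correlation over the 14 libraries was that of Cyp17a1 and Acta2 (r = 0.70), which mark different cell types, and that of Pecam1 and Cdh5, of the same type, was 0.09.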

How the data were processed

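The 14 libraries were made with oligo-dT capture, Smart-seq2 type amplification and tagmentation, and read as 75 bp single reads. The deposited table holds raw counts per Ensembl gene, and the authors named cutadapt 1.18, STAR 2.7.10a with GRCm39 and featureCounts 2.0.1 in their methods, whereas the submitters' processing notes list Trim Galore 0.6.2, HISAT2 2.1.0 and GRCm38, which was not settled. Amplified reads carry no molecular identifiers, so floors cover counting error only. Whether a strand setting was used in counting is not given in the sources used here. Columns were assigned to groups by their prefix. Nothing states that libraries of 1 group came from separate animals, so p-values measure the spread between these libraries, which may be technical. Correlations of log2(count + 1) between libraries were 0.942 to 0.979, and no 2 libraries were alike enough to be counted once.

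Symbols and positions came from GENCODE vM39 on GRCm39, with 54749 of 55414 identifiers matched. Counts were tested with edgeR 4.0.16 in R 4.3.3 (TMM, filterByExpr with a minimum count of 10 and total of 15, quasi-likelihood test, adjusted p of 0.05 or less called), within each model for the mutants and over all 14 libraries otherwise. DESeq2 1.42.0, other scalings, no filter and leaving out each library were alternatives. Exact two-sided permutation tests on CPM (SciPy 1.17.1) were planned for markers too low for these fits and were run for all 10 markers. log2 CPM used a prior count of 2. The named genes were the 10 markers, the 4 genes of each list with the highest mean CPM, any gene called, and the 3 genes closest to each marker. Genes of the lists that were high in single libraries were named in addition, after their values were seen. Markers and lists were chosen with earlier results of these data known. In counts simulated from these libraries (11376 genes of db/db against CT db, 12210 of ob/ob against CT ob), edgeR recovered 84.8% of 92 genes set to 4-fold and 34.8% of 89 set to 2-fold differences with 5 false calls in db/db, and 71.6% of 95 and 10.2% of 98 with 6 false calls in ob/ob. DESeq2 recovered 91.3% and 58.4% with 29 false calls, and 86.3% and 28.6% with 36. The draws used a single mean per gene and a negative binomial spread, with no library made to stand apart. They covered genes of all levels above the filter, so these shares are not those of the low markers or of the real libraries.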

Additional observations from a re-analysis of the deposited data

Results flagged for a closer look

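Within the groups of 4 libraries, 22 sets of values were examined for a single library far from the others, of which chance marks about 1 in 20, and 3 stood apart. Cyp17a1 in db/db library 24 was at 255.8 CPM, where the other 3 db/db libraries had 9.96 to 21.5 CPM. The summed level of the 3 theca markers in the same library was 339.7 CPM, which the Cyp17a1 value makes up for the most part. The summed theca level in CT db library 75 was 111.9 CPM, with Pdgfra, Ptch1 and Cyp17a1 each at the highest value of the 4 CT db libraries. Groups of 3 libraries, CT ob with its library 65 among them, were not examined in this way.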

How the results depend on the processing

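Depth limited the low markers most, since Notch3, Flt1, Kdr and Cdh5 had 3 counts or fewer in 13, 10, 5 and 6 of the 14 libraries. No paired analysis was possible because the columns of the count table carry no replicate numbers. No scaling moved the median log2 fold change of all genes by over 0.1.

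The number of genes called moved with the tool and the filter. DESeq2 called 44, 86, 1563, 72 and 72 genes in db/db against CT db, ob/ob against CT ob, CT ob against CT db, ob/ob against db/db and the difference of the mutant effects, and edgeR without a filter on low counts called 270, 359, 1727, 535 and 329. Scaling by library totals alone gave 2 genes in the db model and 261 between the controls, and 1 fit of all 14 libraries gave 0 for db/db and 1 for ob/ob. With single libraries left out, the calls ran from 1 to 4 in the db model, from 112 (without CT ob library 68) to 1196 (without CT db library 37) between the controls, and from 0 to 1 for the difference of the mutant effects, where leaving out db/db library 24 gave the 1.

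Without the filter edgeR called Pdgfrb in db/db (1.90, adjusted p = 1.13e-05), Cyp17a1 in db/db (2.68, adjusted p = 4.78e-31, a value set by db/db library 24), Pdgfra in ob/ob (-1.75, adjusted p = 0.0281), Kdr in ob/ob (-2.51, adjusted p = 0.00432) and Kdr in CT ob against CT db (3.35, adjusted p = 1.88e-05). For Cyp17a1 it also called ob/ob against db/db (-2.59) and the difference of the mutant effects (-2.54), and for Acta2 that difference (-2.29). DESeq2 called Pdgfrb in db/db and Pdgfra in ob/ob. The cause of these differences between tools was not tested.

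Directions of log2 fold changes that edgeR had not called turned with single libraries left out. In db/db against CT db Pdgfra ran from -0.22 to 0.29. In ob/ob against CT ob the ranges were -0.39 to 0.0043 for Ptch1, -0.76 to 1.13 for Cyp17a1 and -2.03 (without ob/ob library 106) to 0.62 (without CT ob library 65) for Acta2. In CT ob against CT db they were -1.16 to 1.17 for Cyp17a1, -1.04 to 0.22 for Pdgfrb, -0.73 to 1.63 for Acta2 and -2.15 to 1.34 for Cdh5, and scaling by library totals gave 0.0029 for Cyp17a1. Pecam1 ran from -0.067 to 1.196 in ob/ob against db/db. The difference of the mutant effects ran from -1.03 to 0.27 for Pdgfrb and from -2.80 to 1.34 for Cdh5. The other 356 of 376 fits with a library left out, of markers also tested with all libraries, kept direction and side of the threshold. Not in this number are fits that Kdr and Cdh5 entered only with a library left out. Among these edgeR called Kdr in CT ob against CT db in 4 fits, which the filter set and which are not read as calls.

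The summed levels depended on their most abundant gene. Without Ptch1 the theca sum was 20.3 CPM in CT db, 25.5 CPM in CT ob and 15.8 CPM in ob/ob. Without Pdgfrb the mural sum was 14.03 CPM in db/db and 5.83 CPM in ob/ob, and without Pecam1 the endothelial sum was 3.65 CPM in ob/ob. At 2 times the median in place of 3, 8 of the 14 theca and stroma genes were high in CT ob library 65, and the endothelial count there was 14 at 2 times the median, 10 at 5 times the median and 10 against the median of its own group. Of the 3 genes closest to each marker, between 0 and 3 stayed among the closest 3 after centring on group means or with Spearman's rho.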
